A study of Porphyridium purpureum with 12 samples.

Results

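Late nitrogen depletion (LND) was compared with the nitrogen-replete state (NR) in the unicellular red alga Porphyridium purpureum, the first and the last points of the same cultivation. The comparison holds 6 of the 12 RNA-seq libraries of the series, chosen by their labels, and covers all 9898 genes of the count table. NR cells (3 libraries) were sampled as logarithmic growth began, with 1.5 g/L residual NaNO3, and LND cells (3 libraries) in the stationary phase with 0.3 g/L. Both were strain 1380/1A, grown in modified Provasoli medium under continuous light in photobioreactors. Effects of nitrate, of the age of the culture and of its growth phase thus cannot be told apart. By the labels the 3 libraries of a condition are technical ones made from 1 biological sample, while the paper also speaks of biological replicates. The labels were followed, so p-values measure the spread between libraries and not between cultures.

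Nitrate enters a cell through transporters, is reduced to nitrite and then to ammonium, and reaches amino acids through glutamine synthetase or glutamate dehydrogenase. Red algae store carbon as floridean starch in the cytosol, and Porphyridium releases a sulfated exopolysaccharide built from nucleotide sugars by glycosyltransferases. Glycolysis and the pentose phosphate pathway connect both stores to respiration and to reducing power. Nitrogen shortage is known to slow growth in microalgae and to redirect carbon toward storage and secreted sugars.

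The libraries held 6398926 to 19531507 counts in NR and 19133359 to 29725946 in LND, and NR replicate 3 held the fewest. The median gene differed between NR replicates 1 and 2 by 0.16 on the log2 scale, between NR replicate 3 and these by 0.42 and 0.44, and between LND libraries by 0.17 to 0.21. NR replicates 1 and 2 lay 0.49 to 0.58 from the LND libraries, not far above the distance of NR replicate 3 from them. NR replicate 3 lay still farther from the LND libraries (0.65 to 0.67). Even counts outnumbered odd ones among counts from 1 to 20, with 68.7% even in NR replicate 3 and 54.8% to 65.0% in the others. Counts of replicates differed by 13.3 to 84.1 times what counting error allows (chi-square per degree of freedom), so each error given here comes from the spread between libraries. NR replicate 3 bears on many of the results, and list counts and named genes that rest on it are given with and without it.

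Between NR and LND, 728 genes were higher and 1078 lower in LND, which is 7.96% and 11.8% of the 9150 genes tested (19.7% in all). A gene was called changed, as a DEG, where the quasi-likelihood test of edgeR gave an adjusted p (Benjamini-Hochberg) under 0.01 and the log2 fold change (log2FC) was 1 or more in size. Levels are CPM values with TMM scaling, which corrects for library size and composition but not for gene length, and errors of log2FC are SE. The libraries of LND and NR did not overlap for any of the 1806 DEGs, while over all genes tested 27.0% lay fully above and 29.1% fully below NR in LND. The median log2FC of the DEGs was 1.41 among the higher and 1.84 in size among the lower, and 39 of the higher (5.36%) against 253 of the lower genes (23.5%) changed by more than 3.

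The DEGs took very different shares of the transcript pool in the 2 conditions. Higher genes held 16.6%, 15.6% and 12.4% of all counts in the NR libraries and 43.9%, 44.5% and 43.5% in the LND libraries. Lower genes held 26.7%, 27.4% and 27.3% in NR and 4.39%, 4.07% and 4.38% in LND. The change was carried by few genes, since 31 higher genes made up 50% of the gain in CPM and 23 lower genes 50% of the loss. Of the 100 genes with the most counts in LND, 68 were higher than in NR and 1 was lower, and of the 100 with the most counts in NR, 38 were lower in LND and 23 higher. The lists shared 50 genes. Higher DEGs were found mostly among abundant genes, with 19.4% of the top and 1.44% of the bottom of 4 equal bins by mean level, while the share of lower DEGs ran from 11.3% to 12.8% over the bins. In each of these sets the genes were chosen by the contrast they describe, so the shares are a description.

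**Figure D1:**
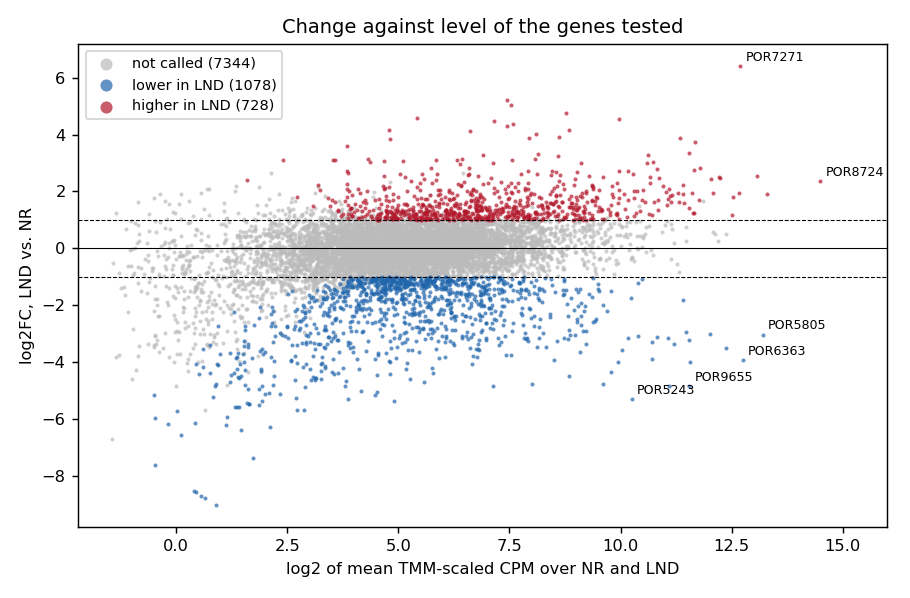
Each point is a gene, with the log2 of its mean level over NR and LND on the x axis and its log2FC in LND vs. NR on the y axis. The 728 higher genes (red) crowd at the right, the 1078 lower genes (blue) spread over all levels and reach larger sizes, and dashed lines mark a log2FC of 1 in size.

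Without NR replicate 3, 839 genes were higher and 1335 lower of 9267 tested (9.05% and 14.4%). Of the 728 higher genes 635 (87.2%) kept their call and of the 1078 lower genes 1010 (93.7%), none turned direction, and 204 higher and 325 lower genes were gained. In edgeR, the spread between libraries (biological coefficient of variation) came to 23.4% with NR replicate 3 and 14.2% without it. When any other library was left out instead, 557 to 758 genes were higher and 832 to 979 lower, and 480 higher and 746 lower genes passed in every such fit, the fit without NR replicate 3 included. With library totals as the scale instead of TMM, the median log2FC of all genes moved by -0.31, and the fit gave 386 higher and 1588 lower genes (4.22% and 17.4%), 80.4% of them lower against 59.7% with TMM.

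The largest increases were found in genes of little known function. POR7271, annotated as a hypothetical protein, had 172, 136 and 151 CPM in the NR libraries and 14345, 13715 and 11067 in LND, which is an 85.2-fold increase (log2FC 6.41 ± 0.24, edgeR adjusted p = 8.8e-07). POR9133, which carries an SH3 domain, a module that binds proline-rich peptides, had 8.84, 6.96 and 12.3 CPM in NR and 338, 381 and 294 in LND (log2FC 5.20 ± 0.23). The hypothetical protein gene POR0402 had 7.61, 9.31 and 16.5 CPM in NR against 309, 361 and 399.9 in LND (log2FC 5.04 ± 0.29). NR replicate 3 was the highest NR library for POR9133 and POR0402, and in all 3 genes the lowest LND library was more than 10 times above the highest NR library.

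POR5227 and POR0448, for which the sources used here give no product, rose by 4.76 ± 0.35 and 4.57 ± 0.48 on the log2 scale. The last of the 6 largest increases, the hypothetical protein gene POR3533, had 116 and 112 CPM in NR replicates 1 and 2, 14.3 in replicate 3, and 2079, 1899 and 1770.5 in LND. Its NR libraries thus disagreed with each other, and its log2FC was 4.56 ± 0.64 with NR replicate 3 and 4.07 without it. All 6 genes had an edgeR adjusted p of 8.8e-07 to 0.00035 with all libraries.

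The largest decreases included rare and abundant genes. POR9686 had 55.5, 72.2 and 46.7 CPM in NR and 1.38, 0.826 and 1.91 in LND (log2FC -5.36 ± 0.32, edgeR adjusted p = 2.8e-06). POR5243, far more abundant, had 2066, 2058 and 2999 CPM in NR and 88.0, 54.0 and 39.4 in LND, a 39.3-fold decrease (log2FC -5.30 ± 0.34, edgeR adjusted p = 3.6e-06). POR4574 fell by 5.29 ± 0.52, from 23.4 to 32.0 CPM in NR down to 0.118 to 0.994 in LND. No product is given for these genes in the sources used here.

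In the remaining decreases of this group the values rested on very few LND counts or on 1 library. POR0077 held 16 counts over the 3 LND libraries and POR1026 15, and their log2FC of -5.69 ± 0.81 and -5.66 ± 0.67 moved to -7.11 without LND replicate 1 and -5.00 without LND replicate 3 for POR0077, and to -6.56 without LND replicate 2 for POR1026. POR5420 had 3.83 and 5.68 CPM in NR replicates 1 and 2 but 28.5 in replicate 3, and its log2FC of -5.27 ± 1.13 (edgeR adjusted p = 0.0043) became -3.87 without NR replicate 3 and -7.60 without LND replicate 3. It did not pass without LND replicate 1 or 2 (edgeR adjusted p = 0.019 and 0.024).

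**Figure D2:**
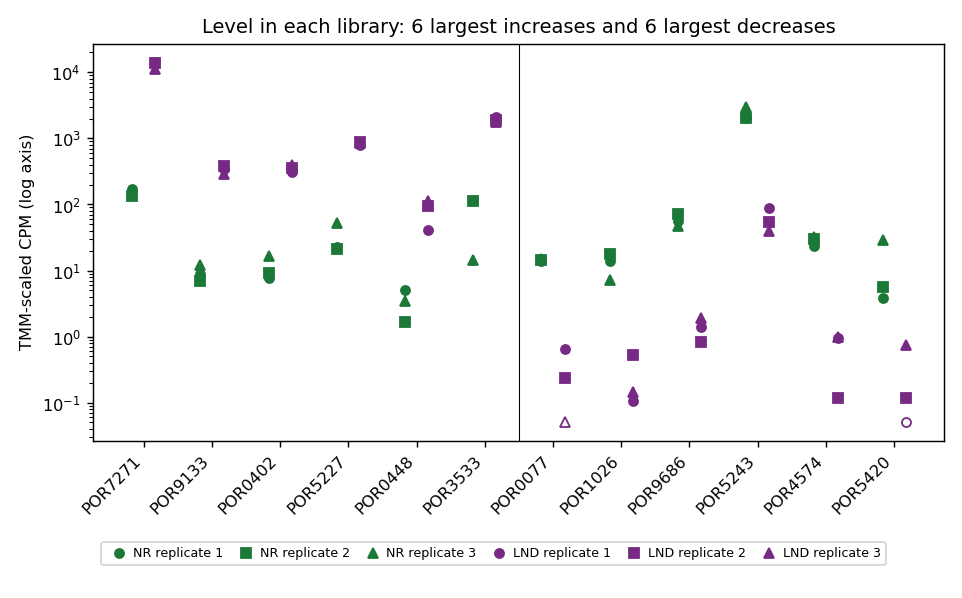
Points give the level in each library on a log axis in TMM-scaled CPM for the 6 largest increases (left) and the 6 largest decreases (right). The genes are DEGs with at least 10 CPM in the higher condition. NR is in green and LND in purple, with a symbol for each replicate and open symbols for values of 0. The colors do not overlap for any gene, and the NR replicate 3 triangle lies apart for POR3533, at 14.3 CPM against 116 and 112, and for POR5420, at 28.5 against 3.83 and 5.68.

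Of the lower genes, 6 had no count in any LND library, and no higher gene was without counts in all NR libraries. The most abundant of the 6 were POR6396, with 2.17, 2.84 and 6.14 CPM in NR (132 counts), and POR4527, with 3.36, 1.99 and 4.00 CPM (129 counts). Against a floor of 3 counts over the LND libraries, they were at least 64.8-fold and at least 63.3-fold lower in LND. At this depth a lower level than that could not be told from absence.

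In absolute terms, the gene with the largest gain was POR8724, which encodes phosphoenolpyruvate carboxykinase (PEPCK), the enzyme that makes phosphoenolpyruvate from oxaloacetate at the entry to gluconeogenesis. It had 10308 and 10015 CPM in NR replicates 1 and 2, 2064 in replicate 3, and 38765, 38956 and 37751 in LND. Every LND library lay above every NR library, but NR replicate 3 lay far below the other NR libraries. The log2FC was 2.37 ± 0.50 (edgeR adjusted p = 0.0042) with all libraries and 1.92 without NR replicate 3 (edgeR adjusted p = 2.5e-12). With NR replicate 3 kept and an LND library left out, PEPCK did not pass (edgeR adjusted p = 0.016 to 0.019).

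After POR7271, the next largest gains in CPM were those of the blue-light photoreceptor gene POR2343 and of POR6842 and POR7465, which have no product in the sources used here. POR2343 had 3425, 2424 and 1812 CPM in NR and 14987, 15175 and 14114 in LND (log2FC 2.53 ± 0.26, edgeR adjusted p = 5.0e-05). POR6842 rose from 4202 ± 449 CPM (SD, n = 3) to 15925 ± 1604 and POR7465 from 2687 ± 292 to 10265 ± 1629. These 5 genes made up 21.2% of the gain of all higher genes.

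The 5 largest losses in CPM likewise fell in genes without a product in the sources used here. POR5805, the gene with the most counts in NR, had 17528, 18174 and 14421 CPM there and 2248, 1939 and 1959.9 in LND (log2FC -3.03 ± 0.21, edgeR adjusted p = 4.5e-06). POR6363 fell from 12918 ± 1740.2 CPM (SD, n = 3) to 852 ± 133, POR1132 from 9757 ± 1138 to 868 ± 148, POR2774 from 7298 ± 530.1 to 912 ± 98.5 and POR9655 from 5765 ± 1019.7 to 202 ± 40.4. Their NR libraries, replicate 3 included, differed among themselves by far less than NR and LND did. They made up 24.3% of the loss of all lower genes.

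Among the 10 genes of nitrogen uptake and assimilation, 6 fell, 1 rose and 3 did not pass, with a median log2FC of -1.39 against -0.04 over all genes tested. The counts were the same without NR replicate 3, and 70% of the list was called against 19.7% of all genes tested. Apart from the CAZyme lists, which rest on sequence matches, the gene lists used here were picked by the study from the same libraries, and their direction is not independent evidence. The strongest decreases were those of the nitrate transporter genes POR8948 and POR1427, which carry nitrate into the cell. POR8948 had 103, 96.7 and 115 CPM in NR and 4.15, 3.42 and 7.36 in LND, and POR1427 had 62.6, 48.3 and 63.2 against 3.83, 2.71 and 5.23. The other annotated NRT2.5 genes stayed within a log2FC of 1, with 0.92 ± 0.19 for POR6298 (edgeR adjusted p = 0.0037) and -0.81 ± 0.26 for POR7993 (edgeR adjusted p = 0.031). POR6298 alone of the 4 had all LND libraries above NR, at 56.7, 62.0 and 52.4 CPM against 30.7, 36.4 and 22.7, and it passed without NR replicate 2 (log2FC 1.09).

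Transcripts of the genes for the step from nitrate to ammonium were lower as well. Nitrate reductase genes POR6787 and POR8251 had 237 to 360.3 and 110.3 to 177 CPM in NR against 34.7 to 58.2 and 15.9 to 22.4 in LND, and nitrite reductase POR2445 had 392 to 462 against 139.7 to 174. The remaining nitrate reductase gene, POR3077, had 53.2, 55.2 and 28.5 CPM in NR and 15.9, 14.4 and 24.8 in LND, close together in NR replicate 3 and LND replicate 3. It did not pass without NR replicate 1 or 2 or LND replicate 1 or 2 (edgeR adjusted p = 0.019 to 0.035).

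Downstream of ammonium, 2 of the 4 genes described here rose and 2 did not pass. Glutamate dehydrogenase POR3485, which interconverts glutamate and 2-oxoglutarate, had 248, 277 and 334 CPM in NR and 1167, 1214 and 1150.2 in LND (log2FC 2.04 ± 0.16, edgeR adjusted p = 1.1e-05). GABA transaminase POR3240, which passes the amino group of 4-aminobutyrate to a keto acid, had 718, 678 and 292 CPM in NR against 2983, 3106 and 3325 (log2FC 2.48 ± 0.31, edgeR adjusted p = 0.00018). Glutamine synthetase POR7605 had 138 to 168 CPM in NR and 107 to 146 in LND with overlapping libraries, and asparagine synthetase POR2648 had 754 to 936 and 1023 to 1424. Neither of the last pair passed (edgeR adjusted p = 0.10 and 0.056). POR3240 and POR2648 belong to the 6 named genes of carbon and nitrogen metabolism, of which 4 rose and 2 did not pass, or 5 and 1 without NR replicate 3. With all libraries 66.7% of these 6 were called, against 19.7% of all genes tested.

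**Figure D3:**
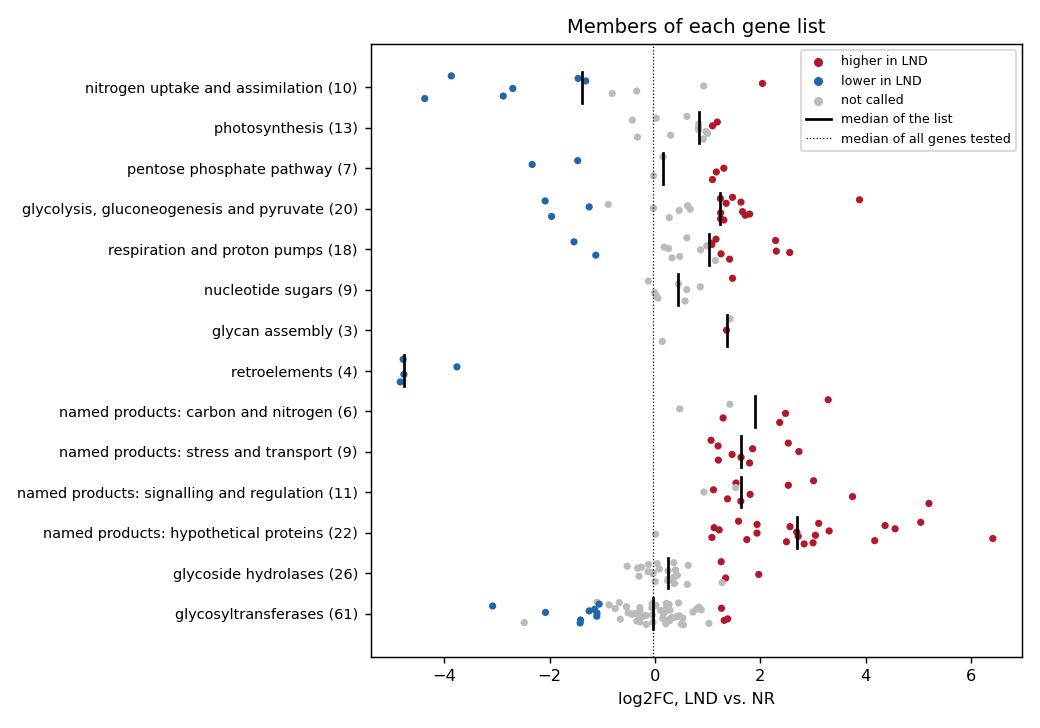
Each point is a tested member of a gene list (number in brackets) at its log2FC in LND vs. NR, red where higher, blue where lower and gray where not called. Short black bars mark the list medians, from -4.77 for retroelements to 2.7 for hypothetical proteins, and the dotted line the median of all genes tested, -0.04.

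Genes of glycolysis, gluconeogenesis and pyruvate metabolism were mostly higher in LND, where 11 of 20 rose, 3 fell and 6 did not pass (median log2FC 1.24), with the same counts without NR replicate 3. The share called was 70%, against 19.7% of all genes tested. The 20 genes held 0.417% to 0.4995% of all counts in NR and 1.20% to 1.44% in LND. Of the summed gain in CPM, 78.9% came from POR0764 and POR6665, genes of pyruvate decarboxylation and alcohol dehydrogenation. Enolase POR6343, which makes phosphoenolpyruvate, had 263, 270.0 and 216 CPM in NR and 899, 853 and 854 in LND (log2FC 1.80 ± 0.15). Phosphoglycerate kinase POR4739 rose by 1.66 ± 0.15, glucokinase POR2873, which commits glucose to the cell, by 1.35 ± 0.13, and pyruvate kinase POR6038 by 1.25 ± 0.13. These 4 had an edgeR adjusted p of 1.5e-05 to 6.4e-05.

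At the pyruvate branch, a pyruvate decarboxylase gene and both alcohol dehydrogenase genes, which lead to ethanol, were higher. Pyruvate decarboxylase POR0764, which releases CO2 from pyruvate to give acetaldehyde, had 428, 405 and 149 CPM in NR and 4954, 4999.6 and 4533 in LND, a log2FC of 3.88 ± 0.37 (3.53 without NR replicate 3, edgeR adjusted p = 3.8e-05 with it). Of the alcohol dehydrogenases, which reduce acetaldehyde, POR6665 rose from 1630.0 ± 426 CPM (SD, n = 3) to 5342 ± 1347 and POR0637 rose from 48.9 ± 14.8 to 116 ± 0.788. NADP-dependent malic enzyme POR0986, which gives pyruvate and NADPH from malate, had 391, 384 and 104 CPM in NR and 2653, 2705 and 3228 in LND (log2FC 3.29 ± 0.44, edgeR adjusted p = 0.00027, and 2.89 without NR replicate 3). In POR0764, POR0986, PEPCK and GABA transaminase alike, NR replicate 3 held the lowest value. The 3 genes of the glycolysis list that fell were POR1048 and POR6810, described below, and POR3702, a dihydrolipoyl dehydrogenase of the oxidative decarboxylation of keto acids (log2FC -1.25). Scaled to library totals, 7 genes of the glycolysis list were higher in place of 11.

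The pentose phosphate pathway moved in both directions, with 3 of 7 genes higher, 2 lower and 2 not called, and its summed share of the counts lay at 0.0931% to 0.103% in NR and 0.0973% to 0.105% in LND. With all libraries 71.4% of the list was called, against 19.7% of all genes tested. Glucose-6-phosphate dehydrogenase POR9598, which makes the first NADPH of the pathway, rose from 270.1 ± 8.52 CPM (SD, n = 3) to 575 ± 79.5, and lactonase POR6162 from 68.1 ± 10.1 to 153 ± 10.6. Ribose-phosphate pyrophosphokinase POR3179, which feeds nucleotide synthesis, fell from 16.1 ± 2.97 to 5.81 ± 1.04 CPM. It did not pass without NR replicate 2 or any of the LND libraries (edgeR adjusted p = 0.012 to 0.019), which leaves 1 lower gene in place of 2, and POR9598 had a log2FC of 0.99 without LND replicate 1. With library totals the 3 higher genes kept their direction but missed the fold threshold (log2FC 0.77 to 0.98).

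Several genes with the same or a similar product name changed in opposite directions, and the pairs given here were picked after the values were seen. The paper also reports opposite regulation among similar gene products, and as a preliminary result predicts distinct compartments for such isoforms. Of the 6-phosphogluconate dehydrogenases, which make NADPH and ribulose 5-phosphate, POR4213 had 388, 360.2 and 346 CPM in NR and 63.0, 70.0 and 84.3 in LND, while POR4685 had 103, 89.5 and 134 against 269, 282 and 254. Their log2FC values were -2.33 ± 0.15 and 1.31 ± 0.16, and both groups of libraries were apart in each gene.

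Of the pyruvate decarboxylase annotations, POR6810 (predicted mitochondrial) had 99.0 to 118 CPM in NR and 23.0 to 31.5 in LND (log2FC -1.96 ± 0.17), opposite to POR0764 (predicted cytosolic). The fructose-bisphosphate aldolase gene POR9095 (predicted chloroplastic) rose from 25.4 ± 2.22 CPM (SD, n = 3) to 63.0 ± 10.9 and POR1048 (predicted cytosolic) fell from 32.7 ± 15.1 to 7.62 ± 2.57. Subunit a of the V-type ATPase, which pumps protons into vacuoles, rose in POR2018 (log2FC 1.06 ± 0.16) and fell in POR0353 (log2FC -1.54 ± 0.29). The edgeR adjusted p of these changes was 1.8e-05 to 0.0020. The calls of 3 were lost with a library left out, POR1048 without LND replicate 1 or 2 (edgeR adjusted p = 0.012 and 0.011), POR0353 without LND replicate 3 (edgeR adjusted p = 0.011) and POR2018 without NR replicate 1 (log2FC 0.97). A further aldolase gene, POR3181, and a further subunit a gene, POR8744, had all LND libraries above NR but were not called. Their log2FC was 0.62 and 1.15 (edgeR adjusted p = 0.013 and 0.012).

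Of 18 genes of respiration and proton pumps, 8 were higher, 2 lower and 8 not called (median log2FC 1.02), and 9 were higher without NR replicate 3, where POR4579 of complex III was gained (log2FC 1.30). With all libraries 55.6% were called, against 19.7% of all genes tested. The 9 genes of complexes I and III of the respiratory chain held 5 of the higher and none of the lower genes, and the 9 ATPase subunits 3 of the higher and both lower ones. The highest log2FC values were those of complex I, which takes electrons from NADH. Flavoprotein 1 POR0214 had 744, 694 and 222 CPM in NR and 2643, 2737 and 2741 in LND (log2FC 2.29 ± 0.38, edgeR adjusted p = 0.0011, and 1.91 without NR replicate 3). The flavoprotein 2 genes POR6506 and POR6362 rose from 7.22 ± 4.38 CPM (SD, n = 3) to 44.2 ± 5.64 and from 14.9 ± 3.78 to 74.2 ± 5.75. POR6506 had 10.6, 8.81 and 2.27 CPM in the NR libraries, and its log2FC was 2.56 ± 0.41 with NR replicate 3 and 2.18 without it. With library totals 4 genes of the list were higher in place of 8, without LND replicate 2 the number was 5, and with any LND library left out 1 gene was lower in place of 2.

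Photosynthesis genes depended most on NR replicate 3. Of the 13 listed, 2 were higher, none was lower and 11 did not pass with all libraries. This is 15.4% called, against 19.7% of all genes tested. Without NR replicate 3, 7 were higher, where 9.05% of all genes tested were. The median log2FC was 0.83 with that library and 1.17 without it. In all 13 genes NR replicate 3 held the highest of the NR values, by a median of 0.64 on the log2 scale over the mean of the others, whereas over all genes tested it was highest in 43.5%. The list took 0.472% and 0.431% of the counts in NR replicates 1 and 2, 0.794% in replicate 3, and 0.753% to 0.902% in LND.

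Cytochrome b6-f iron-sulfur subunit petC (POR2665), which links the photosystems, had 1026, 892 and 1161 CPM in NR and 2085, 2427 and 2474 in LND and passed either way (log2FC 1.18 ± 0.17, edgeR adjusted p = 0.00042). The antenna gene LHCA1 (POR2835) also passed (log2FC 1.09 ± 0.20, edgeR adjusted p = 0.0017), but not without NR replicate 2 (log2FC 0.97) or LND replicate 2 or 3 (edgeR adjusted p = 0.012 and 0.011), where 1 gene of the list was higher. The antenna gene LHCA4 (POR9059) had 363, 366 and 899.7 CPM in NR and 935, 1041 and 1092 in LND. Its NR replicate 3 thus lay next to LND, and its log2FC was 0.92 ± 0.33 with that library (edgeR adjusted p = 0.045) and 1.49 without (edgeR adjusted p = 3.4e-10). The further LHCA4 genes POR6098 and POR2815, psbQ (POR3050) of the oxygen-evolving complex and psaO (POR2912) of photosystem I were likewise gained, with 1.44, 1.17, 1.21 and 1.28 without NR replicate 3. PsbP (POR2049), also of the oxygen-evolving complex, was the only gene of photosystem II on the list with all LND libraries below NR, at 35.7, 34.6 and 29.8 CPM against 43.5, 45.2 and 46.0, and did not pass. With library totals, petC and LHCA1 did not pass (log2FC 0.86 and 0.77).

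The genes with a product entry in the study's table of selected DEGs, 22 of them entered as hypothetical proteins, showed the opposite shift. NR replicate 3 was the lowest NR library in 41 of these 48 genes, by a median of 1.04 on the log2 scale, against 44.6% of all genes tested and 61.5% of the higher DEGs. Of the genes named for stress and transport, 9 of 9 were higher with all libraries (median log2FC 1.63) and 7 without NR replicate 3, and 5 without LND replicate 2 or without LND replicate 3. Over all genes tested 7.96% were higher, or 9.05% without NR replicate 3, whereas these genes had been selected by the study as DEGs. Of the 4 small heat shock protein genes, chaperones that hold unfolding proteins, POR6677 and POR6190 kept their call without NR replicate 3 (log2FC 1.41 and 1.15), while POR1316 and POR3921 lost it because the log2FC moved from 1.06 to 0.81 and from 1.20 to 0.91. POR6190 did not pass without any of the LND libraries (edgeR adjusted p = 0.015 to 0.016). POR1316 and POR3921 also did not pass without NR replicate 2 or any LND library (edgeR adjusted p = 0.019 to 0.032).

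The flavohemoprotein genes, whose products detoxify nitric oxide, both rose. POR5270 had 316, 282 and 187 CPM in NR and 1688, 1874 and 1655 in LND (log2FC 2.73 ± 0.21, edgeR adjusted p = 1.1e-05). POR7105 had 1150.2, 1071 and 694 against 2095, 2407 and 2208 (log2FC 1.20 ± 0.21), with no call without LND replicate 2 (edgeR adjusted p = 0.0102). The glutathione S-transferase gene POR1698, of a family that conjugates toxic compounds, had 243, 242 and 67.4 CPM in NR and 1127, 1054 and 1018 in LND. Its log2FC was 2.53 ± 0.40 with NR replicate 3 and 2.14 without it.

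Of the genes named for signalling and regulation, 9 of 11 were higher and 2 did not pass, also without NR replicate 3, although CrhR (POR3186), an RNA helicase, was lost there and RMD5 (POR2732) gained. With all libraries 81.8% of the list was called, against 19.7% of all genes tested, but the study drew the list from its DEGs. Phototropin-1 POR7844, a blue-light receptor kinase, had 583, 499 and 275 CPM in NR and 6306, 6380.4 and 5575 in LND, a 13.4-fold increase (log2FC 3.75 ± 0.29, edgeR adjusted p = 9.7e-06). The ubiquitin ligase gene RIE1 (POR0345) had 444, 393 and 189 CPM against 2860.4, 2873 and 2531 (log2FC 3.01 ± 0.30, edgeR adjusted p = 4.5e-05). Both blue-light receptor genes of the list, POR7844 and POR2343, were higher in every LND library than in any NR library. The same held for all 11 genes of the list, and for 27.0% of all genes tested.

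Of the 22 hypothetical proteins in the study's table of selected DEGs, 21 were higher and 1 did not pass, with a median log2FC of 2.7. This is 95.5% called, against 19.7% of all genes tested, in a list already selected for change. Without NR replicate 3, 19 of the 22 were higher, where 9.05% of all genes tested were, and POR3129 and POR7013 missed the fold threshold (log2FC 0.91 and 0.83). POR4095, POR6744, POR7013, POR7395 and POR8973 did not pass when any LND library was left out. Neither did POR3129 without LND replicate 1 or 2 (edgeR adjusted p = 0.012 to 0.035 over these fits). POR1446, with 18.7, 18.4 and 15.7 CPM in NR and 394, 370.0 and 331 in LND, rose with libraries close together in each condition (log2FC 4.37 ± 0.15, edgeR adjusted p = 8.8e-07). POR5364 had 70.1, 63.9 and 57.1 CPM in NR and 74.7, 61.1 and 57.1 in LND (log2FC 0.01 ± 0.16) and was the only member with overlapping libraries.

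In the synthesis of nucleotide sugars, the activated donors of exopolysaccharide, 1 of 9 genes rose and 8 did not pass (median log2FC 0.45), with the same counts without NR replicate 3. The share called was 11.1% here and 33.3% in the glycan assembly list below, against 19.7% of all genes tested. Phosphoglucomutase PGM2 (POR0605), which interconverts glucose 6-phosphate and glucose 1-phosphate, had 54.1, 66.9 and 89.5 CPM in NR and 224, 192 and 165 in LND (log2FC 1.47 ± 0.20, edgeR adjusted p = 0.00031). UGP2 (POR1962), which makes UDP-glucose, had 97.1, 113 and 78.8 CPM against 179.7, 182 and 164, and its log2FC of 0.86 ± 0.15 missed the fold threshold (edgeR adjusted p = 0.0017). Of 3 genes of glycan assembly, ALG5 (POR6123), which makes the glucose donor of N-glycans, rose (log2FC 1.36 ± 0.30, edgeR adjusted p = 0.0052) and 2 did not pass. OSTC (POR5075), a subunit of the complex that attaches N-glycans, had 5.01, 4.90 and 2.40 CPM in NR and 9.63, 14.2 and 9.79 in LND (log2FC 1.42 ± 0.39, edgeR adjusted p = 0.016) and passed without NR replicate 3 (log2FC 1.17). It also passed with DESeq2, with all 12 libraries in the fit and at an adjusted p under 0.05, so 2 of the 3 were higher there. ALG5 did not pass without NR replicate 2 or any LND library (edgeR adjusted p = 0.012 to 0.030), nor with library totals.

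The CAZyme lists hold the glycoside hydrolases and glycosyltransferases that were matched to genes by sequence in the study's supplement. Of 26 glycoside hydrolases, 3 rose, none fell and 23 did not pass (median log2FC 0.25). Without NR replicate 3, 2 were higher, and with library totals 1 was higher. Of 63 glycosyltransferases 61 could be tested, and 3 rose, 9 fell and 49 did not pass (median log2FC -0.04), or 3 and 7 without NR replicate 3. The share called was 11.5% of the hydrolases and 19.7% of the transferases, against the 19.7% of all genes tested.

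The hydrolases that rose were 1 of 9 GH13, 1 of 3 GH77 and 1 of 3 GH36 genes. The transferases that rose were 1 of 6 GT20 genes, 1 of 4 GT39 genes and the only GT35 gene. Other members of these families were not called. Over all genes tested 7.96% were higher, and with families this small the numbers are a description. GT35 (POR6603), the family of glycogen and starch phosphorylases, had 394, 405 and 456 CPM in NR and 1132, 1139 and 993 in LND (log2FC 1.38 ± 0.15, edgeR adjusted p = 6.5e-05). GH13 (POR4239), of the alpha-amylase family, had 80.7, 65.1 and 82.0 CPM against 302, 309 and 280.0 (log2FC 1.97 ± 0.14, edgeR adjusted p = 6.5e-06). GH77 (POR0525), the family of 4-alpha-glucanotransferases, had 104, 112 and 118 against 271, 270.2 and 257 (log2FC 1.26 ± 0.12, edgeR adjusted p = 4.2e-05).

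Glucan water dikinase POR4248, which phosphorylates starch ahead of its breakdown, had 338, 318 and 344 CPM in NR and 854, 793 and 805 in LND (log2FC 1.29 ± 0.13, edgeR adjusted p = 5.5e-05). In these 4 genes NR replicate 3 lay close to the other NR libraries, and the log2FC without it was 1.30 to 2.02. GT20 (POR6823), of trehalose-6-phosphate synthases, rose from 329 ± 85.1 CPM (SD, n = 3) to 817 ± 45.3. GH36 (POR5976), of alpha-galactosidases, had 363 and 373 CPM in NR replicates 1 and 2, 130.1 in replicate 3, and 697 to 780.3 in LND. It rested on NR replicate 3, with a log2FC of 1.34 ± 0.33 with that library (edgeR adjusted p = 0.0092) and 0.99 without it, and did not pass with NR replicate 2 or any LND library left out (edgeR adjusted p = 0.010 to 0.040).

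Among the 9 transferases that fell, GT19 (POR1913), of lipid A disaccharide synthases, had 325, 344 and 240.4 CPM in NR and 40.9, 29.3 and 37.2 in LND (log2FC -3.08 ± 0.19, edgeR adjusted p = 3.2e-06). GT25 (POR4547) had 271, 234 and 569 against 84.3, 88.6 and 81.1 (log2FC -2.08 ± 0.30, and -1.58 without NR replicate 3). The other 7 fell by 1.06 to 1.42 and belong to GT4 (POR6738, POR0856 and POR8498), GT13 (POR4794), GT14 (POR3489), GT77 (POR3691) and GT8 (POR5778). POR6738, POR4794 and POR5778 did not pass without NR replicate 3, with -0.94, -0.98 and -0.90, while POR1266 of GT13 was gained, with 6.66, 7.17 and 0.534 CPM in NR and 2.34, 2.36 and 3.28 in LND (log2FC -0.87 with all libraries and -1.37 without it). POR6738 also did not pass without an LND library (edgeR adjusted p = 0.025 to 0.041), POR5778 without LND replicate 3 (edgeR adjusted p = 0.0105) and POR0856 without any library other than NR replicate 3 (log2FC -1.15 to -0.92, edgeR adjusted p = 0.0078 to 0.019).

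The 4 retroelement genes listed by the study, whose polyproteins copy and insert transposons, were lower in every LND library than in any NR library. All 4 were called lower, while of all genes tested 11.8% were called lower and 29.1% lay fully below NR. As the study picked these 4 from the same libraries, they do not stand for the retroelements of the genome. The TNT 1-94 genes POR5449 and POR0765 had 4014 to 4294 and 1265 to 1661 CPM in NR and 114 to 189.5 and 47.1 to 67.3 in LND, and their log2FC values were -4.84 ± 0.24 and -4.78 ± 0.22 (edgeR adjusted p = 1.5e-06 and 9.6e-07). The 4 genes together took 0.716%, 0.734% and 0.727% of the counts in NR and 0.0276%, 0.0194% and 0.0185% in LND. NR replicate 3 thus lay between the other NR libraries. Near-identical copies can share reads, so the count of a single copy is uncertain.

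Lower genes were not spread evenly over the assembly's scaffolds. On 19 scaffolds with at least 50 tested genes, the share of lower genes ran from 7.17% (scf229_5, 446 tested) to 27.2% (scf210_14, 114 tested), and that of higher genes from 0% (scf270_19) to 10.6% (scf209_3). On scf210_14, 31 genes were lower and 3 higher, and the median log2FC of its tested genes was -0.77 against -0.04 over all genes. Without NR replicate 3 its lower genes numbered 36 (31.6%). The scaffold with the next largest share, scf289_17, had 17.6% lower.

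The genes of scf210_14 held 2.72%, 2.75% and 2.77% of all counts in NR and 0.431%, 0.401% and 0.443% in LND. The 31 lower genes had a median log2FC of -3.23, and 18 of them fell by more than 3. POR6363 and POR9655, described above among the largest losses, both lie on this scaffold and held 2.07% to 2.09% of the counts in NR. Apart from these 2, 29 of its genes were lower, and 26 of the 31 had a mean of at least 10 CPM in NR. No product is given for these genes in the sources used here. Scaffold shares are a description without a test.

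**Figure D4:**
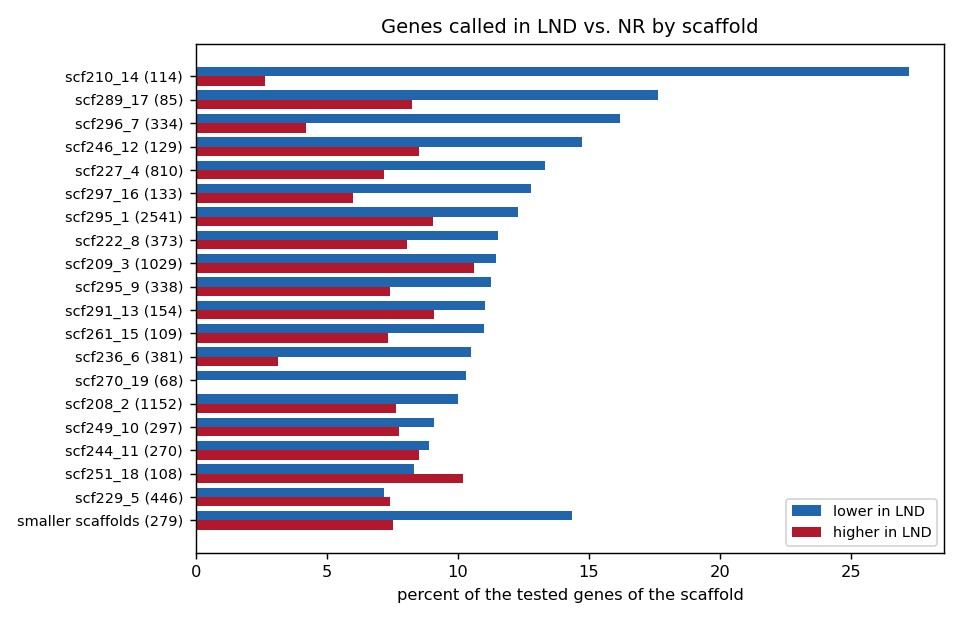
Bars give the percent of the tested genes of each scaffold (number tested in brackets) that were lower (blue) or higher (red) in LND vs. NR, for the 19 scaffolds with at least 50 tested genes and for all smaller ones together. The top bar pair, scf210_14, has 27.2% lower and 2.63% higher genes.

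NR replicate 3 moved single genes from no call to large changes. POR5045 had 28.4 and 17.9 CPM in NR replicates 1 and 2, 371 in replicate 3, and 389, 407 and 335 in LND. Its replicate 3 value lay inside the LND range, and its log2FC was 1.45 ± 0.90 with that library (edgeR adjusted p = 0.22) and 4.01 without it (edgeR adjusted p = 2.5e-13). POR3995 had 13.5, 9.38 and 95.0 CPM in NR against 93.0, 101 and 74.9 in LND (log2FC 1.23 ± 0.70, and 2.95 without it). The hypothetical protein gene POR4095 had 57.4, 67.6 and 296 CPM against 918, 889 and 891 and passed either way (log2FC 2.69 ± 0.55, and 3.85 without it), but not when NR replicate 2 or any LND library was left out (edgeR adjusted p = 0.010 to 0.017). Germacrene A synthase POR1023, a terpene synthase, was gained without NR replicate 3, with 47.8, 59.3 and 209 CPM in NR and 269, 311 and 258 in LND (log2FC 1.42 ± 0.47, and 2.39 without it).

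The library therefore resembled LND in some genes and lay beyond the other NR libraries, away from LND, in others. Across the genes tested, its deviation from NR replicate 1 correlated at r = 0.04 with the deviation of LND from NR replicate 2, and its deviation from NR replicate 2 at r = 0.07 with that of LND from NR replicate 1. These correlations are across all genes tested, which are not independent replicates, and share no library between their sides. Whether the depth, the handling or the state of the cells of this library differed was not tested.

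**Figure D5:**
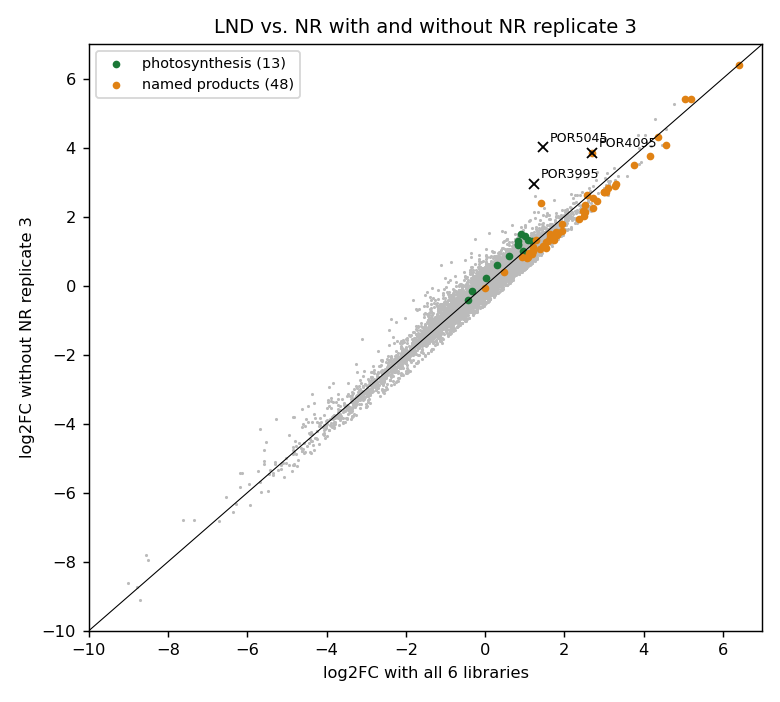
Each gray point is a gene at its log2FC in LND vs. NR with all 6 libraries (x axis) and without NR replicate 3 (y axis), with equality on the line. Photosynthesis genes (green) lie above or at the line, most named products (orange) below it, and the crosses mark POR5045, POR3995 and POR4095, which moved most among genes called with either set of libraries and with a mean of at least 10 CPM over the 6 libraries.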

How the data were processed

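Messenger RNA libraries (stranded, paired-end) of NR and LND cells were compared, 3 per condition. The deposited values are raw counts for each gene without normalization. The submitters' processing notes name STAR 2.7.8a and featureCounts 2.0.1. The strand setting, and whether reads or pairs were counted, are not given in the sources used here, so overlapping genes can share reads.

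Conditions and columns were taken from the labels (0 columns unmatched), with the label ND read as LND. Genes were filtered with filterByExpr (minimum count 10) and tested by quasi-likelihood in edgeR 4.0.16 under R 4.3.3. TMM factors came from the 6 libraries, and Benjamini-Hochberg adjustment ran over all 9150 genes. The SE is the size of the log2FC divided by the square root of F. Library differences used log2(CPM + 1). A condition at 0 was bounded at 3 counts. The procedure was checked on simulated data.

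Alternatives were DESeq2 1.42.0 (likelihood ratio and Wald tests), its size factors, library totals, other filters and thresholds, all 12 libraries in one fit, a replicate block and leaving out each library. Genes named are the 6 largest increases and 6 largest decreases among DEGs with libraries apart, counts in both conditions and at least 10 CPM in the higher one, the 5 largest gains and 5 largest losses in CPM, list members, the 2 most abundant DEGs at 0, and the 3 that moved most without NR replicate 3 among genes called with either set and with a mean of at least 10 CPM over the 6 libraries. The members and lists were chosen with earlier results of these data known.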

Additional observations from a re-analysis of the deposited data

How the results depend on the processing

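The 728 higher and 1078 lower genes were recomputed under 16 alternative settings. Only 2 moved a count by more than 1.5 times, library totals, with 386 higher genes, and an adjusted p under 0.01 without a minimum fold, with 1209 higher genes. Single libraries left out gave 557 to 839 higher and 832 to 1335 lower genes. The DESeq2 likelihood ratio test gave 821 and 1216 genes and kept 722 of the higher and 1060 of the lower ones. Replicate numbers did not pair the libraries, since deviations of same-numbered libraries correlated at -0.08 to -0.06 and no NR library correlated best with its own number, and a replicate block gave 741 higher and 982 lower genes. No named gene changed sign with a call under any setting. Most calls were lost among named genes with library totals (27) and without an LND library (21 to 25), a fit with fewer samples. Lists of few genes, counts under about 10 CPM and the missing replication over cultures limit what the comparison shows.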
